A study of Rattus norvegicus with 20 samples.

Results

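The genes described here encode 9 structural microtubule-associated proteins, *Map1a*, *Map1b*, *Map1s*, *Map2*, *Map4*, *Map6*, *Map7d1*, *Map7d2* and *Mapt*. They were taken by symbol from the 31038 genes of a count matrix of the rat medial prefrontal cortex (mPFC), and all 9 were found. The matrix holds 20 male Sprague-Dawley rats, aged 6 to 8 weeks when treatment began according to the labels, with 1 library per rat. Of these, 10 received lysergic acid diethylamide (LSD) by intraperitoneal injection, 0.16 mg/kg on alternate days for 90 days, and 10 received sterile saline on the same schedule. The tissue was taken after 3 weeks without treatment by the series' own description, and after a somewhat longer interval by the study's methods, for both groups alike. The tissue was sequenced in bulk from mPFC of 1 hemisphere, dissected from frozen brain, with all of its cell types.

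Microtubules are hollow polymers of alpha- and beta-tubulin that give neurons their shape and carry transport along axons and dendrites. Structural microtubule-associated proteins bind along the polymer, stabilise and bundle it, and influence where motor proteins attach. In cortical neurons, MAP2 is known as a protein of dendrites and cell bodies and tau (*Mapt*) as a protein of axons, and both share their microtubule-binding repeats with MAP4. MAP1A, MAP1B and MAP1S are made as precursors that are cleaved into heavy and light chains, MAP6 protects microtubules against cold and drugs, and MAP7D1 and MAP7D2 belong to the family that recruits kinesin-1.

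The number of reads on genes lay between 16346629 and 25552681 in rats given LSD (median 20271086) and between 11098076 and 24201351 in controls (median 16815424), with the higher median in LSD. The 9 genes together took between 0.419% and 0.643% of these reads, and every one of them had between 405 and 39917 reads in each rat, so that counting error was smaller than the spread between rats. Levels are given as TMM-normalised RPM, that is, reads per 1000000 reads on genes after a scaling factor for each library that makes most genes comparable. They were not divided by transcript length, so levels are compared between rats and not between genes. The markers of cortical excitatory neurons were present, with *Slc17a7* at 2092 ± 309 normalised RPM in controls (SD, n = 10), and *Ttr*, a marker of choroid plexus, was at 0.958 ± 0.769. In a bulk tissue sample, fewer cells of a type and less RNA per cell cannot be told apart.

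Expression was compared between LSD and saline with edgeR's quasi-likelihood test over the 16605 genes that had 5 reads or more in 10 or more rats, with p-values adjusted by the Benjamini-Hochberg method over all of them. *Map2* and *Map7d2* were higher in rats given LSD and *Map7d1* was lower, while the other 6 genes did not pass the threshold of 0.05. These 3 of 9 genes stand beside 15.0% of all tested genes called in either direction, 6.48% higher and 8.54% lower. The 9 were chosen with earlier results of these data known, so this is a description and not a test of the set. The median log2 fold change was 0.08 for the 9 genes and 0.00 for all tested genes, and the median of its absolute size was 0.18 and 0.14. In none of the 9 genes did the groups separate completely, as they did for 0.193% of all genes.

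The sequences around the annotated starts of the 3 called genes are shown to place them beside each other, since *Map7d1* and *Map7d2* come from one family and moved in opposite directions. Each run covers 250 bases before to 50 after the start in the RefSeq annotation of GRCr8, 5′ to 3′ on the strand of the gene, with CG dinucleotides in capitals. The window of *Map2* is chr9:75346440-75346739 (plus strand), that of *Map7d1* is chr5:143836972-143837271 (minus strand) and that of *Map7d2* is chrX:39296646-39296945 (minus strand).
Map2: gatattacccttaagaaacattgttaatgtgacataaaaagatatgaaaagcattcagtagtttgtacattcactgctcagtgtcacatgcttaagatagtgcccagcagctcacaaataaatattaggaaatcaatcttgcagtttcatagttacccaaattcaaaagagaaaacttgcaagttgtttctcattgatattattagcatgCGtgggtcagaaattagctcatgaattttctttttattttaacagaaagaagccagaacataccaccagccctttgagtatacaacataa
Map7d1: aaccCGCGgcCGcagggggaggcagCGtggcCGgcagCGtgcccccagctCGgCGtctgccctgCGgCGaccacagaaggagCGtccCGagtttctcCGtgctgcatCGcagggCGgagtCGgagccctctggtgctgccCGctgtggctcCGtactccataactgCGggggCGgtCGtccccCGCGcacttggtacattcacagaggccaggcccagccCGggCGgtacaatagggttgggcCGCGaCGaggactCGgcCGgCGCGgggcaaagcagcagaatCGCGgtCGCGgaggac
Map7d2: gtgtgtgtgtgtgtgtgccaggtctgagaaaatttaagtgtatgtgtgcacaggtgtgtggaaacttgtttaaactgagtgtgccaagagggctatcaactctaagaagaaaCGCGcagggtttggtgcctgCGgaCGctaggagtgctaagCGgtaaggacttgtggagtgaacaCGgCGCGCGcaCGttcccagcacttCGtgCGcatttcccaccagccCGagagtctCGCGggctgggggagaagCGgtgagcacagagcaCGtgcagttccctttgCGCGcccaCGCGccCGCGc
The *Map7d1* window held 36 CG dinucleotides at 71.3% G and C, the *Map7d2* window 23 at 58.0%, and the *Map2* window 1 at 33.3%, against a median of 7 over the 33469 promoter windows of the table. The GC box GGGCGG, searched on both strands, occurred 3 times in the *Map7d1* window and was absent from the other two, and 33.1% of all windows held it at least once. The cAMP response half-site TGACG, also searched on both strands and held by 21.2% of all windows, was in none of the 3, and the E-box CACGTG, held by 6.42%, occurred once in the *Map7d2* window. The TATA box TATAAA, held by 14.2%, was in none of the 3, and the Egr core GCGTGGG, held by 4.33%, occurred once each in the *Map2* and *Map7d2* windows. A match of letters is only a description. The table had a window for 6 of the 9 genes.

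Among the proteins with shared microtubule-binding repeats, *Map2* was higher in rats given LSD and *Mapt* and *Map4* did not pass the threshold. *Map2* lay between 917 and 1187 normalised RPM in rats given LSD, with a median of 1012. In controls it lay between 604 and 1022, with a median of 851. All 10 rats given LSD were above the median of the controls and 4 were above the highest control, and the lowest value of all belonged to control 9. The means were 1039 ± 99.6 in LSD and 852 ± 118 in saline (SD, n = 10 rats each), a difference of 0.29 on the log2 scale (SE 0.0767, 95% interval 0.13 to 0.44, adjusted p = 0.0178, edgeR's quasi-likelihood test). The adjusted p of *Map2* was 0.00735 to 0.0375 when single rats were left out. It was 0.0697, with a log2 fold change of 0.18, when counts were corrected for the genomic span of the genes, and 0.0853, with 0.25, when the depth of each library was a covariate.

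*Mapt*, which encodes tau, lay between 703 and 985 normalised RPM in rats given LSD (median 852), and controls lay between 737 and 1040 (median 871). The groups overlapped over most of their range, with 6 of the 10 rats given LSD below the median of the controls, and the log2 fold change was -0.11, with an SE of 0.0652 (adjusted p = 0.280). *Map4*, which is expressed in glia and in most other tissues as well as in neurons, lay between 363 and 429 in rats given LSD (median 389), and controls lay between 325 and 429 (median 371). Its log2 fold change was 0.08 (95% interval -0.03 to 0.19, adjusted p = 0.306), and 9 of the 10 rats given LSD were above the median of the controls. Its sign turned to -0.01 with the span correction.

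**Figure D1:**
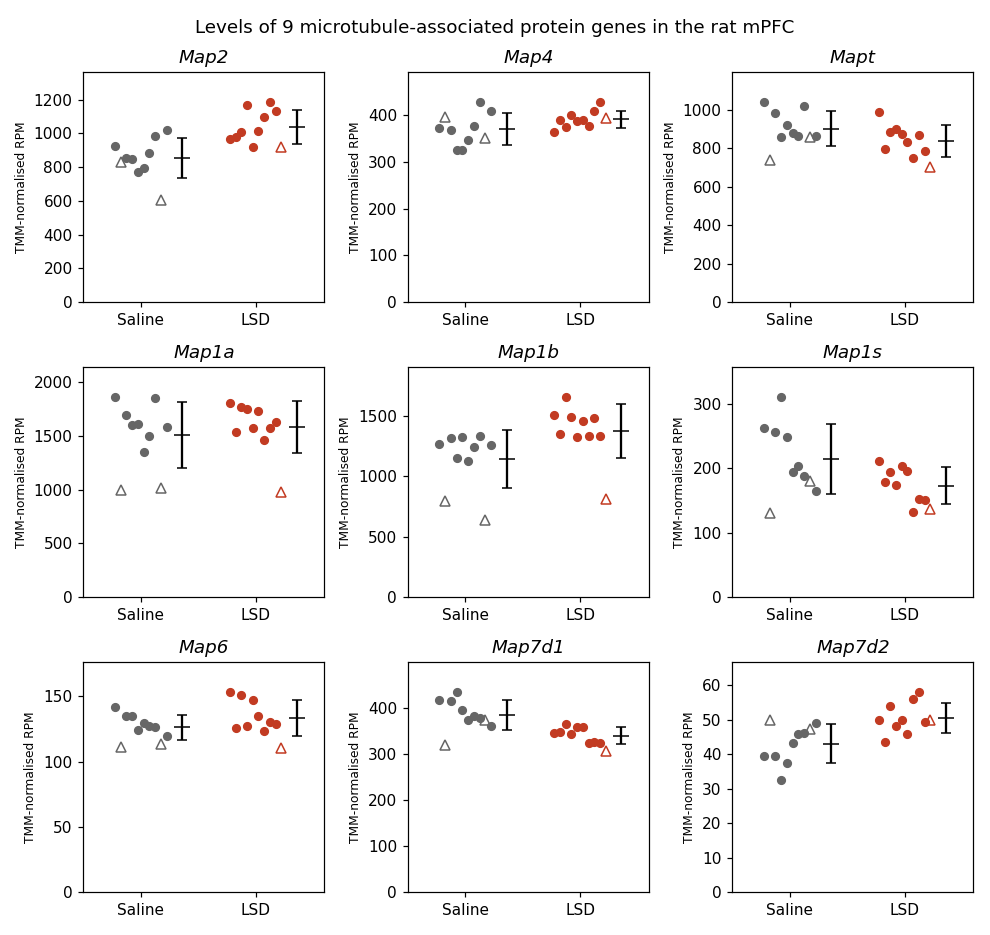
TMM-normalised RPM of each gene in every rat (points, in the order of the replicate number within each group) with the mean and SD over 10 rats beside them. The labels do not say what the replicate number stands for. LSD rats 7 to 10 had at least 22770382 reads on genes, and LSD rats 1 to 6 had at most 20374594. Open triangles mark LSD rat 10 and controls 2 and 9, which lie below all other rats for *Map1a* and *Map1b*, and all rats given LSD lie above the median of the controls for *Map2* and below it for *Map7d1*.

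In the MAP7 family, *Map7d2* was higher and *Map7d1* lower. The family genes *Map7* (-0.08, adjusted p = 0.654) and *Map7d3* (0.73, adjusted p = 0.147, at 0.599 ± 0.245 normalised RPM in LSD and 0.370 ± 0.250 in saline) did not pass, and were named after their values were seen. *Map7d1* lay between 307 and 365 normalised RPM in rats given LSD, with a median of 344, and controls lay between 318 and 433, with a median of 380. All 10 rats given LSD were below the median of the controls. The ranges overlapped, with control 2 lower than all rats given LSD but rat 10, and control 10, at 359.97, below LSD rat 3. The log2 fold change of *Map7d1* was -0.18 (SE 0.0513, 95% interval -0.29 to -0.07, adjusted p = 0.0237). *Map7d2*, the least abundantly read of the 9 genes, lay between 43.6 and 57.9 in rats given LSD (median 49.9), and controls lay between 32.5 and 49.9 (median 44.6). Of the rats given LSD, 9 were above the median of the controls and 5 above the highest control. Its log2 fold change was 0.23 (SE 0.0704, 95% interval 0.08 to 0.37, adjusted p = 0.0337). With library depth as a covariate both calls ended, with log2 fold changes of -0.08 for *Map7d1* (adjusted p = 0.271) and 0.09 for *Map7d2* (adjusted p = 0.367). The call of *Map7d1* was lost without control 1, 3 or 4 (adjusted p up to 0.0530), and without the filter on low counts (adjusted p = 0.0663). That of *Map7d2* was lost without LSD rat 3, 7 or 8 or control 1, 3, 4 or 5 (adjusted p up to 0.0685), and after the span correction (0.14, adjusted p = 0.217).

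In the MAP1 family, none of the 3 genes passed the threshold. *Map1a*, the form that predominates in mature neurons, lay between 975 and 1806 normalised RPM in rats given LSD (median 1603), and controls lay between 993 and 1861 (median 1589), and the log2 difference was 0.07 (adjusted p = 0.727). *Map1b*, the form best known from growing axons, lay between 809 and 1656 in rats given LSD (median 1403), and controls lay between 640 and 1333 (median 1251). Of the rats given LSD, 7 were above the highest control, yet the log2 fold change of 0.26 had a standard error of 0.124 and an adjusted p of 0.153. *Map1s*, a shorter and more widely expressed member, lay between 132 and 212 in rats given LSD (median 176), and controls lay between 130 and 311 (median 198), a log2 difference of -0.30 (SE 0.127, adjusted p = 0.104).

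For *Map1a* and *Map1b*, 3 libraries stood apart from the rest. LSD rat 10 had 975 normalised RPM of *Map1a* and 809 of *Map1b*, control 2 had 993 and 795, and control 9 had 1012 and 640. In the other 17 rats, *Map1a* was at least 1349 and *Map1b* at least 1130. These rats were named after their values were seen. Without them the log2 fold change of *Map1b* fell from 0.26 to 0.20, with an adjusted p of 0.0193. The rats were picked by their low *Map1a* and *Map1b*, so leaving them out narrowed the spread of *Map1b*. Its p in this fit therefore cannot serve as support for a difference. The log2 fold change of *Map1s* was -0.37 with an adjusted p of 0.0322. Counting *Map1b*, 5 of the 9 genes passed, where 20.4% of all genes did. *Map2* (0.25, adjusted p = 0.0153), *Map7d1* (-0.20, 0.00800) and *Map7d2* (0.27, 0.0163) passed without these rats as well. Levels of *Map1s*, *Map2* and *Map7d1* correlated with *Map1a* (r = 0.65, 0.57 and 0.70), so the choice of rats was tied to them too. Control 2 also had the lowest *Map7d1* and the highest *Map7d2* of the controls. Neither the p-values nor the count of genes in this fit can therefore serve as support for a difference.

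*Map6* lay between 111 and 153 normalised RPM in rats given LSD (median 130), and controls lay between 111 and 142 (median 127). Of the rats given LSD, 7 were above the median of the controls, 3 above the highest control and 1 below the lowest, and the log2 fold change was 0.08 (95% interval -0.04 to 0.20, adjusted p = 0.384).

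The levels of 8 of the 9 genes followed the depth of the library within each group. After each group was centred on its mean, *Map1s* correlated with the log2 of reads on genes over the 20 rats with a Pearson's r of -0.86 and a Spearman's rho of -0.91 (permutation test, adjusted p = 0.00012 and 6e-05 over 12 relations, two-sided). For *Map7d1*, r was -0.76 and rho -0.80 (adjusted p = 0.00174 and 0.00024, permutation test). For *Map7d2*, r was 0.74 and rho 0.83 (adjusted p = 0.00174 and 0.00012, permutation test). Without the 2 rats farthest from the median depth, r was -0.87, -0.77 and 0.70 for these 3 genes. They were the only ones of the 9 with an r over 0.7 in size, as were 15.9% of all tested genes. *Map2* was the only gene of the 9 without a relation that passed (r = 0.14, rho = 0.25, adjusted p = 0.635 and 0.329, permutation test). The remaining 5 genes all passed (adjusted p = 0.0115 to 0.0276, permutation test). For *Map1a*, *Map1b*, *Map6* and *Mapt*, r lay between -0.60 and -0.54, and for *Map4* it was 0.58. The median size of r over all tested genes was 0.391. The share of all tested genes that would pass this permutation test was not computed, so the 8 of 9 cannot be called particular to these genes.

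The plot of levels by depth shows that *Map1s* was at 311 normalised RPM in control 4, with 14781608 reads on genes, and at 132 in LSD rat 7, with 25552681. With the log2 of reads on genes as a covariate, chosen after the data were seen, none of the 3 called genes passed the threshold, while 7.06% of all genes did (3.22% higher and 3.85% lower). *Map1s* then differed by 0.05 on the log2 scale, with its sign turned (adjusted p = 0.772). *Map2* differed by 0.25 (adjusted p = 0.0853). *Map1b* rose in this fit, by 0.46 on the log2 scale (adjusted p = 0.0391). Since depth differed between the groups, depth and treatment cannot be told apart fully.

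**Figure D2:**
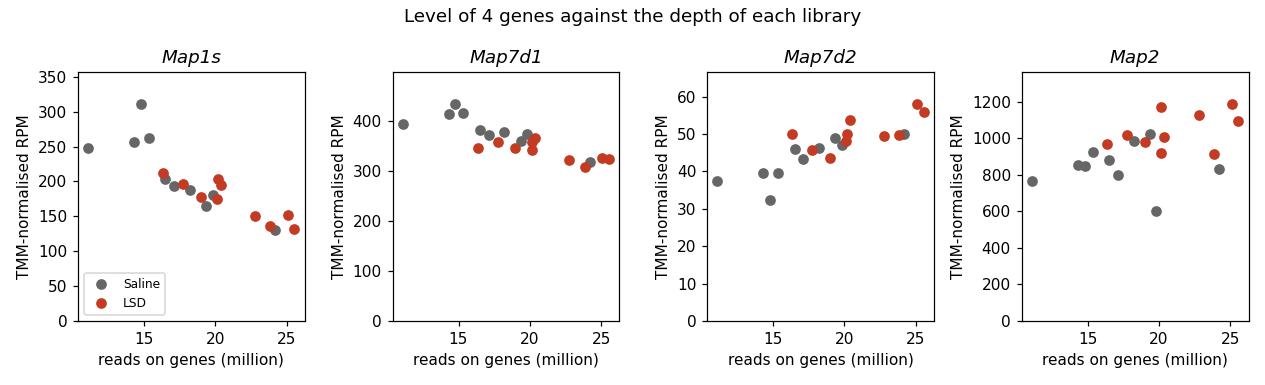
TMM-normalised RPM of *Map1s*, *Map7d1*, *Map7d2* and *Map2* against the number of reads on genes in each library, 1 point per rat, grey for saline and red for LSD. *Map1s* and *Map7d1* are lower and *Map7d2* higher in deeper libraries of both groups. For *Map2* the relation did not pass (r = 0.14 over 20 rats, 0.42 within LSD and 0.02 within saline).

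Genomic span was a second property that went with the differences. When the 14929 genes with a known span were divided by it into 5 groups of equal size, the median log2 fold change went from -0.11 in the group of shortest genes to 0.10 in the longest. The share of genes called higher went from 1.24% to 16.5%, and the share called lower from 18.8% to 2.58%. *Map1b*, *Map2*, *Map4*, *Map7d2* and *Mapt* belong to the group of longest genes, *Map6* to the next, *Map1a* and *Map7d1* to the middle one and *Map1s* to the one above the shortest. *Map2* spans 258569 bases and *Map7d2* 115724, against 25131 for *Map7d1*. After the span correction, *Map7d1* alone of the 9 genes passed the threshold (-0.18), and 10.1% of all genes did. *Mapt*, also among the longest genes, moved to -0.19 (adjusted p = 0.0683), and it passed as lower when the span correction was joined with a block for replicate number (-0.19, adjusted p = 0.0165).

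**Figure D3:**
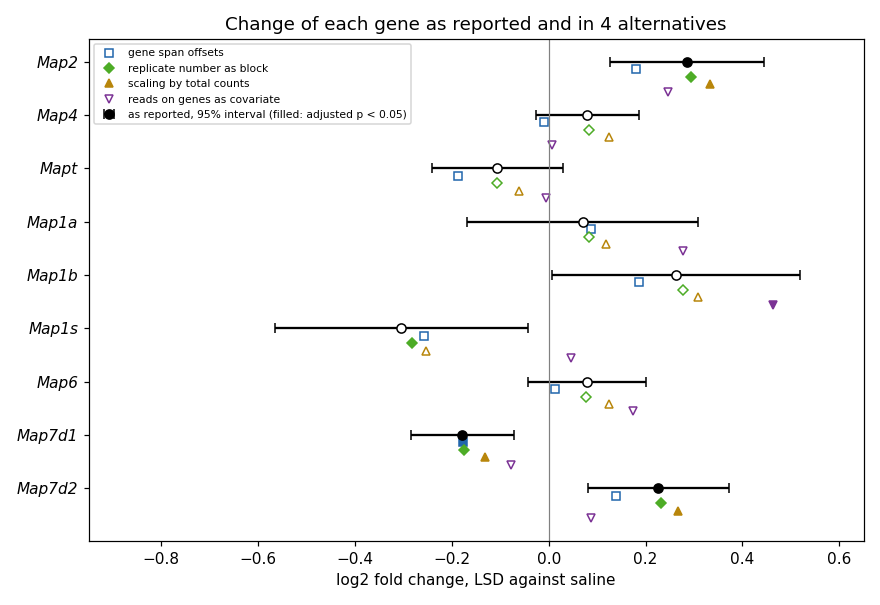
Log2 fold change of each gene between LSD and saline with its 95% interval (circles and bars) and the value under 4 other settings (coloured symbols), where filled symbols passed an adjusted p of 0.05. *Map2* stays above 0 in all 5, at 0.18 to 0.33, and *Map1s* crosses 0 with reads on genes as a covariate.

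Ratios of reads within a rat, for which the scaling of the library cancels, compare members directly and are given as a description without a test. The log2 ratio of *Map2* to *Mapt* was 0.31 ± 0.19 in rats given LSD and -0.09 ± 0.22 in controls (SD, n = 10), and 7 of the 10 rats given LSD were above the highest control. It followed depth (r = 0.53, or 0.79 within LSD and 0.38 within saline), and the difference of 0.40 was 0.27 with depth as a linear covariate. The log2 ratio of *Map1a* to *Map1b* was 0.21 ± 0.07 in rats given LSD and 0.40 ± 0.13 in controls, and all 10 rats given LSD were below the median of the controls, whose values ran from 0.26 to 0.66. This difference was -0.21 to -0.16 when single rats were left out and -0.18 without the 3 rats with low levels of both genes. Over all 20 rats the ratio did not follow depth (r = -0.0003, difference of -0.19 also with the depth covariate). Its r was -0.40 within LSD and 0.15 within saline. It was not corrected for genomic span, which differs between the 2 genes. With the span correction, *Map1a* and *Map1b* had log2 fold changes of 0.09 and 0.19, nearer to each other than the 0.07 and 0.26 without it. The log2 ratio of *Map7d2* to *Map7d1* was -2.75 ± 0.17 in rats given LSD and -3.17 ± 0.31 in controls. It followed depth closely (r = 0.81), and its difference of 0.41 was 0.17 with the depth covariate.

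Many of the 9 genes varied together from rat to rat once each group was centred on its mean. Over the 36 pairs, the correlation of group-centred log2(normalised RPM + 1) in 20 rats passed an adjusted p of 0.05 for 18 pairs with a positive sign and 3 with a negative one (permutation test, two-sided). Some of these rested on the 3 rats with low *Map1a* and *Map1b*, without which r went from 0.63 to 0.22 for *Map1b* and *Map2*, from 0.57 to 0.27 for *Map1a* and *Map2* and from 0.53 to 0.20 for *Map1b* and *Map1s*. *Map1s* and *Map7d1* had an r of 0.95 and a rho of 0.93 (adjusted p = 0.00018 and 0.00036, permutation test), which was 0.92 without the 2 rats farthest from the median of *Map1s* and 0.94 without the 3 rats named above. *Map1a* and *Map1b* had an r of 0.94 and a rho of 0.85 (adjusted p = 0.00024 and 0.00036, permutation test). Without the 3 rats with low levels r was 0.72. *Map1s* and *Map7d2* went in opposite directions (r = -0.77, rho = -0.74, adjusted p = 0.00103 and 0.00252, permutation test). This was stronger in controls (r = -0.93) than in rats given LSD (r = -0.39). For *Map7d1* and *Map7d2*, r was -0.85 in controls and -0.28 in rats given LSD. *Map2* and *Map4* had an r of 0.59 and a rho of 0.68 (adjusted p = 0.0265 and 0.00493, permutation test), while *Map2* and *Mapt* had an r of 0.22 (adjusted p = 0.486, permutation test). All pairs share the depth of the libraries, which the members themselves followed. The share of other gene pairs passing the same test was not computed, so these counts cannot be called particular to the 9 genes.

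**Figure D4:**
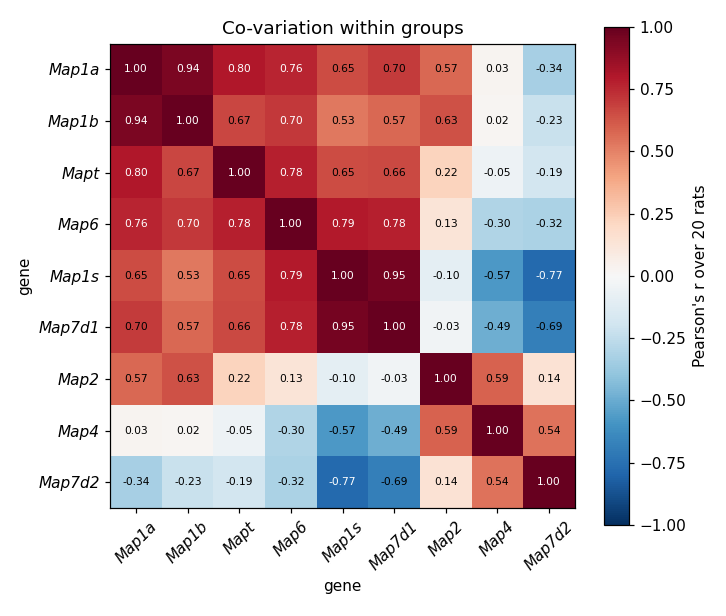
Pearson's r between the 9 genes over 20 rats, on log2(normalised RPM + 1) centred within each group, with red for positive and blue for negative values. *Map1a*, *Map1b*, *Mapt*, *Map6*, *Map1s* and *Map7d1* have r from 0.53 to 0.95 with each other over all 20 rats, but from 0.20 to 0.94 without the 3 rats named above. *Map7d2* is negative with each of these over 20 rats, and without the 3 rats its r with *Map1b* is 0.16. In rats given LSD alone, its r is 0.13 with *Map1b*, 0.10 with *Map6* and 0.05 with *Mapt*. It is negative there with *Map1a*, *Map1s* and *Map7d1*.

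Most genes of the tubulin family, which makes the polymer and its nucleating complexes, were lower in rats given LSD. Of 16 tubulin genes, 11 were lower and none higher by the same test, beside 8.54% and 6.48% of all tested genes. This list too was chosen with earlier results known, so the count is a description and not a test of the list. The median log2 fold change of the list was -0.24 against 0.00 for all genes. *Tuba1a* and *Tuba1b*, alpha-tubulins found in neurons, fell by 0.37 on the log2 scale (adjusted p = 0.00408 and 0.00888). *Tuba1a* was at 175 ± 19.9 normalised RPM in LSD and 226 ± 22.7 in saline (SD, n = 10). *Tubb2b*, a neuronal beta-tubulin, fell by 0.36 (adjusted p = 0.0106), and *Tubb3*, the beta-tubulin used as a marker of neurons, by 0.30 (adjusted p = 0.0218). The others that passed were *Tubb2a*, *Tubb4a*, *Tubb4b*, *Tubb5*, *Tuba4a* and the gamma-tubulins *Tubg1* and *Tubg2*, with log2 fold changes from -0.30 to -0.20. The coding sequences of tubulin genes are much alike, so that reads may be split between or lost from them. Most are short genes, and in the group of shortest genes and the one above it, 18.8% and 13.4% of all genes were called lower. After the span correction, 4 of the 16 were lower, beside 1118 of 16605 genes. With depth as a covariate, 3 were lower, among them *Tuba1a* (-0.30, adjusted p = 0.0295), beside 3.85% of all genes. Without the 3 rats named above, 10 were lower, beside 1695 of 16309 genes.

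In the other lists of microtubule genes, 7 were higher and 8 lower of 70 tested, beside 6.48% and 8.54% of all tested genes. Among other binding proteins, *Map9*, a protein of spindle and cytoplasmic microtubules, was higher (0.32, adjusted p = 0.00666), and so was *Dcx*, the doublecortin of migrating and immature neurons (0.52, adjusted p = 0.0274), though not without LSD rat 7 or control 1, 4 or 9 (adjusted p up to 0.0510). The call of *Dcx* was also lost with depth (0.26, adjusted p = 0.298), *Drd2* (0.44, adjusted p = 0.105) or the span correction (0.44, adjusted p = 0.0629), and that of *Map9* with depth (0.21, adjusted p = 0.0516). *Map1lc3a* and *Map1lc3b*, whose products are best known from autophagosomes and were originally described as light chains of MAP1A and MAP1B, were lower (-0.32 and -0.26, adjusted p = 0.00565 and 0.00623), as was *Tppp3*, a tubulin-polymerising protein (-0.32, adjusted p = 0.0494), whose call was lost without any one of 16 of the 20 rats. Among the proteins at the ends of microtubules, *Clip1*, *Ckap5* and *Clasp2*, which track or extend growing plus ends, were higher with log2 fold changes of 0.24, 0.27 and 0.22 (adjusted p = 0.00619, 0.00902 and 0.0106), and the end-binding protein gene *Mapre3* was lower (-0.21, adjusted p = 0.0180). With depth as a covariate, *Ckap5* (0.21, adjusted p = 0.0596), *Clasp2* (0.16, adjusted p = 0.0770) and *Mapre3* (-0.12, adjusted p = 0.159) no longer passed, and neither did *Clasp2* after the span correction (0.13, adjusted p = 0.0743).

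Of the kinases and phosphatases that act on these proteins, *Ttbk2*, a tau-tubulin kinase, was higher (0.29, adjusted p = 0.00854) and *Cdk5*, a neuronal kinase of tau and MAP1B, was lower (-0.21, adjusted p = 0.0126), and the other 17 genes did not pass. The 10 stathmins and severing enzymes tested had a median log2 fold change of -0.02. Of the enzymes that modify tubulin, the polyglutamylase gene *Ttll7* was higher (0.27, adjusted p = 0.0189), and the deacetylase gene *Sirt2* (-0.25, adjusted p = 0.00940) and *Tpgs1*, a subunit of a polyglutamylase complex (-0.31, adjusted p = 0.0145), were lower. With depth as a covariate, *Ttbk2* (0.22, adjusted p = 0.0577), *Cdk5* (-0.19, adjusted p = 0.0559), *Ttll7* (0.15, adjusted p = 0.173) and *Tpgs1* (-0.18, adjusted p = 0.145) no longer passed. After the span correction, *Cdk5* (-0.14, adjusted p = 0.0574) and *Ttll7* (0.18, adjusted p = 0.0968) did not pass, nor did *Sirt2* with *Drd2* as a covariate (-0.16, adjusted p = 0.0539). With depth as a covariate, 3 of all 86 genes outside the 9 were higher and 8 lower, beside 3.22% and 3.85% of all tested genes, and after the span correction 4 and 9 were.

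**Figure D5:**
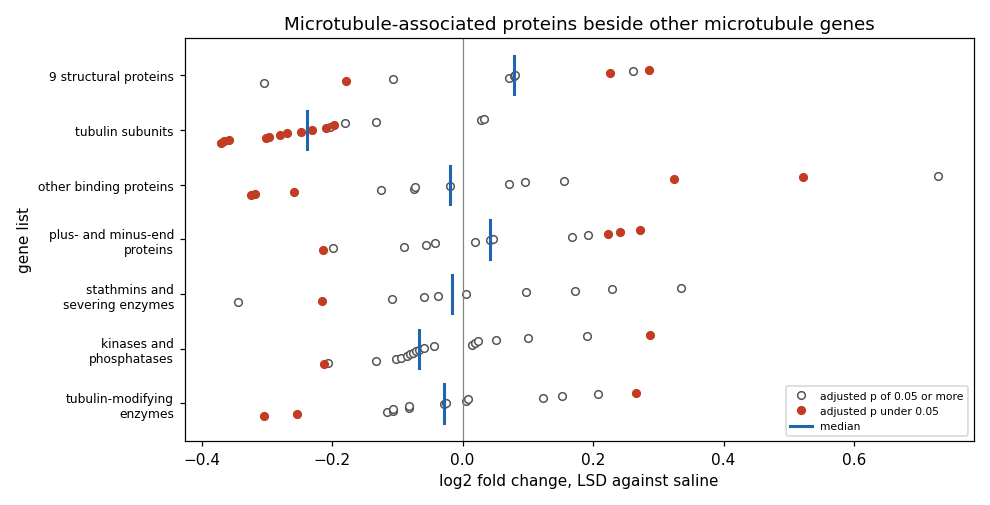
Log2 fold change between LSD and saline of the 9 structural proteins and of 86 other microtubule genes in 6 lists, 1 point per gene, red where the adjusted p was under 0.05, with the median of each list as a blue line. The tubulin subunits lie almost wholly below 0, with a median of -0.24, and the 9 structural proteins lie on both sides of 0.

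Markers of other cell types and of a neighbouring region were measured in the same fit, and the part of these cell types in the differences was not tested. The 7 general neuronal markers had no gene past the threshold and a median log2 fold change of 0.01. Of 3 markers of inhibitory neurons, *Slc32a1*, the vesicular GABA transporter, fell by 0.34 (adjusted p = 0.0180) and *Gad2*, a GABA-synthesising enzyme, rose by 0.23 (adjusted p = 0.0369). Of 6 astrocyte markers, *Slc1a2*, a glutamate transporter, was higher (0.41, adjusted p = 0.0423). No marker of cortical excitatory neurons, microglia, endothelial cells, oligodendrocyte precursors or choroid plexus passed. These marker genes were named after their values were seen. The 6 oligodendrocyte markers had negative log2 fold changes with a median of -0.35 and no gene past the threshold (smallest adjusted p = 0.0715), with their summed level from 2232 to 5761 normalised RPM in rats given LSD and from 2195 to 7479 in controls. With depth as a covariate, 4 of the 6 were lower. The 5 markers of striatal neurons likewise had a median of -0.80 and none past the threshold (smallest adjusted p = 0.0671), and their summed level ran from 130 to 331 in rats given LSD and from 148 to 466 in controls. With depth as a covariate, all 5 were lower. The fits with a single marker that follow left out depth, and *Drd2* and *Mbp* themselves had log2 fold changes of -0.84 and -0.42. They do not test the part of striatal or myelin content. With the level of *Drd2*, a striatal marker, as a covariate, *Map2*, *Map7d1* and *Map7d2* had log2 fold changes of 0.28, -0.20 and 0.27 (adjusted p = 0.0459, 0.0380 and 0.0367), and with the level of *Mbp*, a myelin gene, of 0.31, -0.21 and 0.28 (adjusted p = 0.0134, 0.0115 and 0.0110).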

How the data were processed

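RNA from the mPFC of 20 male rats was sequenced after poly(A) selection, with 1 library per rat, and groups were taken from the sample titles. Before deposit, the authors used TrimGalore for trimming, Hisat2 with the rn6 genome for alignment and HTSeq-count for assigning reads to genes. The deposited values are raw counts without normalisation. Versions, gene annotation and strand setting are not given in the sources used here, so reads of genes that overlap on opposite strands may not be separated. The 5 rows without a name, which held 25.5% to 29.0% of all entries of a library, were left out, and no column went unmapped. The p-values of edgeR weigh a group difference against the variation between rats, which includes differences between their libraries. Those of the permutation test concern a correlation over rats.

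The study's filter, 5 reads or more in 10 or more libraries, left 16605 genes, which were tested with edgeR 4.0.16 in R 4.3.3 (TMM, quasi-likelihood F test, Benjamini-Hochberg adjustment, threshold 0.05), while the study itself used DESeq2. The test was also run on simulated counts. These held no trend with depth or span and no correlation between genes, so they do not show how the test behaves where such trends exist. Levels are RPM on the TMM scale, and intervals are 95%. Alternatives were DESeq2 1.42.0, scaling by total counts or by DESeq2 size factors, a stricter or no filter, a block for replicate number, offsets for genomic span (50 bins smoothed over 5, centred in each rat, spans from the GRCr8 annotation for 89.9% of genes), and 1 surrogate variable (sva 3.50.0). Every rat was also left out once. Leaving out 3 rats and the covariates for depth, *Drd2* and *Mbp* were added after the data were seen. Correlations used 100000 permutations within groups in Python 3.11.15, and the smallest p these can give is 1e-05. The named genes are the 9, up to 3 genes per direction with the smallest p from each list of microtubule genes, and the 2 genes most correlated with each of the 9; *Tubb3* and the other called tubulins were added as members of a list that moved together. Of the genes this rule names, 3 are not reported here. Members and lists were chosen with earlier results of these data known. Transcript length was not used here.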

Additional observations from a re-analysis of the deposited data

Results flagged for a closer look

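LSD rat 10 lay far below the other rats given LSD for *Map1a* (975.4 normalised RPM, where the other 9 had at least 1462) and for *Map1b* (809.1, where the other 9 had at least 1329). The gap to the next rat was 0.586 and 0.614 of the range of the group, above the 95% limit of Dixon's test for 10 samples. These were 2 of 24 groups of values examined, and chance alone marks about 1 in 20. Controls 2 and 9 had similarly low values of both genes, but as they lie near each other neither was marked.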

How the results depend on the processing

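The direction of each of the 9 genes was kept in all alternatives, except for *Map4* with the span correction (-0.009899, or -0.00708 with the replicate block) and *Map1s* with depth as a covariate (0.04556). No reversal occurred among the 18 named genes outside the 9. Of the 9 genes, 2 were higher and 1 lower in the test as reported. None was higher with the span correction, with or without the block, and 1 with depth as a covariate. The number lower was 0 without the filter on low counts and with depth as a covariate, and 2 with the block, with span correction and block, without the 3 rats and with *Mbp* as a covariate. With each rat left out, 1 to 2 were higher and 0 to 2 lower. Of the genes in the microtubule lists, 7 were higher and 19 lower as reported. The number higher was 11 with total counts, DESeq2 and the block, 12 with *Mbp*, 4 with the span correction and 3 with depth. The number lower was 9 with the span correction and 8 with depth. With each rat left out, 6 to 11 were higher and 15 to 20 lower.

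Over all genes, 1076 were higher and 1418 lower as reported. The number higher was 567 with the span correction, 1639 without the 3 rats, 614 with *Drd2* and 534 with depth. The number lower was 858 with total counts, 836 without the filter, 912 with *Drd2* and 639 with depth. With each rat left out, 663 to 1669 were higher and 957 to 1907 lower, and the number higher moved by over 1.5 times without LSD rat 8 or control 2 or 4. The replicate numbers were shared by both groups, but only 6 of 10 pairs had a correlation over 0.1 (range -0.259 to 0.467) and 3 of 20 libraries correlated best with their own number, so they were not taken as pairs. With the replicate block, *Map1s* passed the threshold (-0.28, adjusted p = 0.0455) and 1355 genes were higher and 1606 lower. The lowest count of any of the 9 genes was 405 reads. With total counts, 1504 genes were higher and 858 lower. The causes of these shifts were not tested.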

Other observations

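Outside the 9 genes, those with the most similar pattern over the 20 rats, by Pearson's r of group-centred log2(normalised RPM + 1), are given as a description. They were picked as the highest among all tested genes and share library depth with them. *Map1b* was most like *Ank2*, an ankyrin that links membrane proteins to the cytoskeleton (r = 0.98), and *Dync1h1*, the heavy chain of cytoplasmic dynein (r = 0.98), with r of 0.92 and 0.85 without the 3 rats of low *Map1b*. *Map1a* was most like *Zzef1* and *Gtf3c1* (r = 0.97 and 0.96, or 0.86 and 0.81 without these rats). *Map1s* and *Map7d1* shared the lysosomal transporter gene *Atp13a2* (r = 0.98 and 0.96), beside *Mib2* for *Map1s* (r = 0.98) and *Nkpd1* for *Map7d1* (r = 0.96). *Map6* was most like *Il17ra* and *Adcy3* (r = 0.95 and 0.94), and *Mapt* like *Chrna4*, a subunit of nicotinic acetylcholine receptors, and *Epha10* (both r = 0.90). *Map4* was most like *Dock10* (r = 0.93) and *RGD1563888* (r = 0.91), *Map7d2* like *Tpp2* (r = 0.92), and *Map2*, with the loosest match of the 9, like *Kdelc1* (r = 0.88).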
